A study of Mus musculus with 6 samples.

Results

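The genes described here encode 47 factors of ribosome biogenesis: proteins of the small nucleolar ribonucleoprotein particles (snoRNPs), factors that cleave and fold ribosomal RNA precursors, proteins of the pre-ribosomes and the machinery of RNA polymerase I. They were chosen by name, and all 47 were listed among the 23183 genes of each of 6 RNA-sequencing libraries. The libraries came from primary group 2 innate lymphoid cells (ILC2) of the lung of wild-type mice, lymphocytes without antigen receptors that release type 2 cytokines. Every culture received interleukins 2, 7 and 33 at 10 ng/ml for 24 h, together with either an IgG2b isotype control antibody (3 libraries, called isotype) or DTA-1, an agonist antibody against the receptor GITR (3 libraries). Groups follow the sample titles, because the treatment tags of replicates 2 and 3 carry running numbers that differ from the titles. Separate animals or cultures are not named for the 3 libraries of a group, so a p-value covers only the spread among them, and that spread may be technical.

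Ribosomes are assembled in the nucleolus, where RNA polymerase I transcribes a long precursor RNA. Box C/D and box H/ACA snoRNPs modify that precursor at sites chosen by their guide RNAs, and separate sets of factors then trim and fold it into the small and the large subunit. Lymphocytes enlarge their nucleoli and raise the expression of these factors when they are activated, and the transcription factor MYC, which binds the DNA sequence CACGTG, is a known activator of many of these genes.

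Levels are given in FPKM (fragments scaled to transcript length and to the total of the library), the unit inferred for the deposited values. Tests used limma on log2(FPKM + 1) over the 10501 genes that reached 1 FPKM in 3 or more libraries, and a gene passed at a Benjamini-Hochberg adjusted p under 0.05. All 47 members passed that filter on low values. A log2 fold change is DTA-1 minus isotype in units of log2(FPKM + 1) and is followed by its SE from limma, and means are given with the SD over 3 libraries. Depth estimated from the steps between low values was 18800000 to 20500000 fragments per library, and the fewest fragments behind any value of a member were about 480, for Polr1e, which corresponds to a counting error of 4.57%. Whether counting used strand is not stated, so reads of the overlapping coding gene on the other strand cannot be told apart for 15 members, namely Bop1, Bysl, Dkc1, Gnl3, Heatr1, Mybbp1a, Nhp2, Noc2l, Nop56, Polr1e, Rrp1b, Rrp9, Taf1d, Tsr1 and Wdr12. Tnfrsf18, the gene of GITR, was present in all libraries at 170.5 ± 27.8 FPKM with the isotype and 203 ± 46.8 FPKM with DTA-1. Its log2 fold change was 0.24 ± 0.19, and it did not pass (limma adjusted p = 0.649). All 12 ILC2 markers of a fixed list reached 1 FPKM in every library. The cytokine genes Il5 and Il13 summed to 3727 to 5210.1 FPKM with the isotype and 8133 to 9474 FPKM with DTA-1. Il13 was higher in every DTA-1 library, but Il5 overlapped (up to 2569 FPKM with the isotype, from 2324 FPKM with DTA-1). The other 10 markers summed to 2287 to 2533 FPKM and 1847 to 2082 FPKM, with Il2ra (1075 to 1715 FPKM) the largest part. Of these 10, 7 had a lower mean with DTA-1, and Il1rl1 and Klrg1 were lower in every DTA-1 library. Gata3, Rora and Thy1 had higher means, with overlap between groups. Of 36 markers of 8 other cell types, 5 (Cd3g, Cd68, Kit, Epcam and Pecam1) reached 1 FPKM in every library. The summed levels of these other lists lay between 0.0174 FPKM (fibroblast, with Dcn at 0 in every library) and 43.8 FPKM (endothelium, nearly all of it Pecam1). Sums were apart between groups for the T cell list, at 10.5 to 11.7 FPKM with the isotype and at most 9.76 FPKM with DTA-1, most of it Cd3g. The same held for the epithelial list, at 3.89 to 4.65 FPKM and 1.47 to 1.95 FPKM, most of it Epcam. The part of other cells in the results was not tested.

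Ribosome biogenesis genes were expressed well above the typical gene of these cells. The mean level of 46 of the 47 members lay above the median of all tested genes (14.2 FPKM), and the median member stood at 56.2 FPKM. Npm1, which encodes the nucleolar chaperone nucleophosmin, was the most abundant at 1825 FPKM over the 6 libraries. Polr1e, which encodes a subunit of RNA polymerase I, was the least abundant at 10.8 FPKM. The members together made up between 0.850% and 1.11% of each library's total FPKM, and between 0.569% and 0.693% without Npm1. The highest share belonged to isotype replicate 2, and the other isotype libraries (0.881% and 0.850%) lay among or just below the DTA-1 libraries (0.872%, 0.857% and 0.954%). Without Npm1, isotype replicates 1 and 3 (0.569% and 0.580%) lay below all DTA-1 libraries (0.595%, 0.596% and 0.636%), and isotype replicate 2 above them.

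No member passed the test over all genes in limma, in either direction. Over all 10501 tested genes, 0.0286% passed as higher and 0.00952% as lower with DTA-1. At an unadjusted p under 0.05, 6 members (12.8%) were higher with DTA-1 and 0 were lower, beside 6.22% and 7.73% of all tested genes. For 14 members (29.8%) every DTA-1 value lay above every isotype value, and for 0 members the reverse held, beside 11.2% and 10.5% of all tested genes. The median log2 fold change was 0.081 over the members and 0.014 over all tested genes, and 32 of 47 members lay above 0, beside 52.6% of all tested genes. The log2 fold changes were small, from -0.26 for Ncl to 0.34 for Nob1, with a median SE of 0.13. The 6 members at an unadjusted p under 0.05 became 1 when DTA-1 replicate 1 was left out, 0 when replicate 2 was and 1 when replicate 3 was, beside 3.65%, 3.69% and 5.06% of all tested genes. The log2 fold changes of these 6 genes stayed between 0.25 and 0.36 in those fits, and between 0.20 and 0.41 with an isotype library left out. The 6 genes were picked by p in these same libraries, so these ranges are no separate support. In bulk RNA, fewer cells that express a gene and less RNA of it per cell cannot be told apart.

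**Figure D1:**
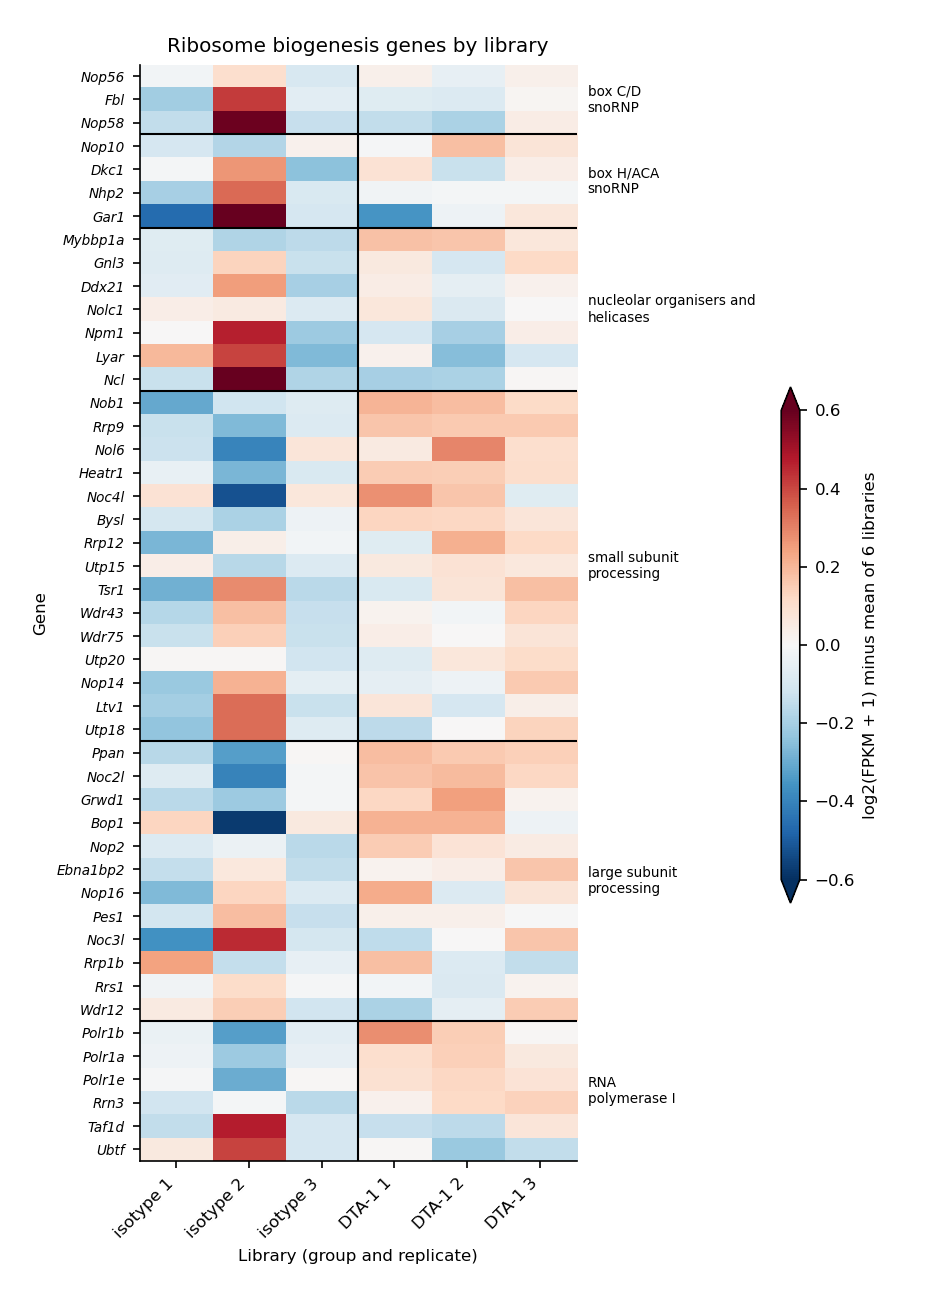
Level of each of the 47 genes (rows, grouped by role) in each of the 6 libraries (columns), as log2(FPKM + 1) minus the gene's mean over the libraries. Isotype replicate 2 holds the highest value of 22 genes and the lowest value of 15, where over all tested genes it is highest for 28.0% and lowest for 28.1%, and the DTA-1 columns are mostly above 0 for the subunit processing groups.

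Isotype replicate 2 was the most frequent extreme library over the whole table, though not by far. It was the highest of the 6 libraries for 28.0% of all tested genes and the lowest for 28.1%. Isotype replicate 1 was the highest for 22.0% and the lowest for 22.3%, and DTA-1 replicate 1 for 25.3% and 16.3%. Among the 47 members isotype replicate 2 was the highest for 22 and the lowest for 15. The direction varied with base composition. GC content, the percentage of G and C in the gene's transcript, ran from 40.4% to 59.8% over the members with a median of 50.5%. Across the 47 members the deviation of isotype replicate 2 from the mean of all libraries had a Spearman correlation of -0.55 with GC content. Across the 10112 tested genes with a known transcript the correlation was -0.59. Other libraries also varied with GC content. Across the members the correlations were -0.0037 and 0.59 for isotype replicates 1 and 3, and 0.50, 0.54 and -0.21 for DTA-1 replicates 1, 2 and 3. Across the tested genes they were 0.13, 0.36, 0.28, 0.30 and -0.23 in the same order. These are descriptions across genes measured in the same libraries. The median deviation of isotype replicate 2 was -0.16 on the log2 scale for the 24 GC-richer members and 0.21 for the 23 GC-poorer ones. The part of GC content in the comparison of groups was not tested, and results are given below with and without this library.

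**Figure D2:**
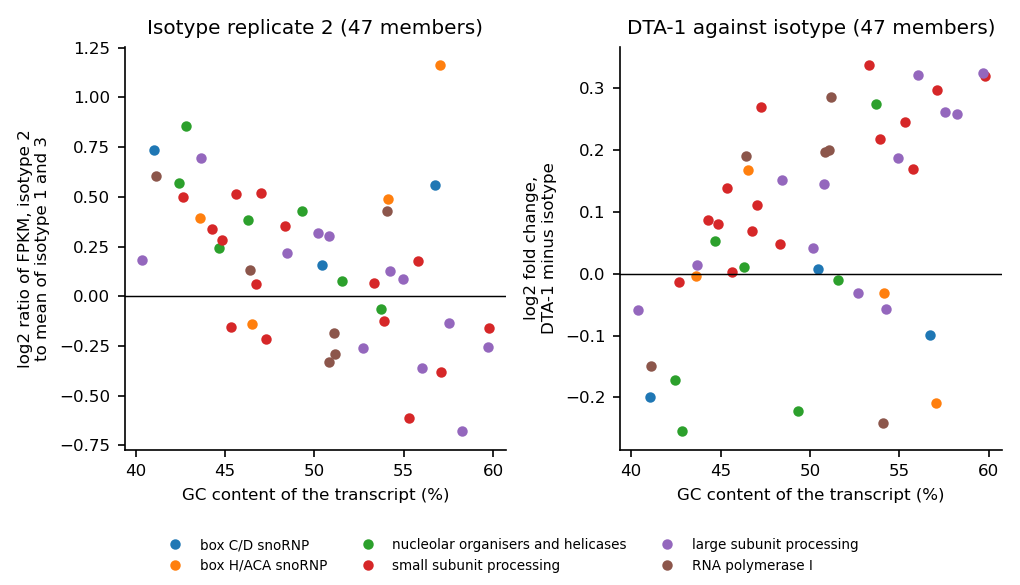
GC content of the transcript in percent against, on the left, the log2 ratio of FPKM in isotype replicate 2 to the mean of isotype replicates 1 and 3 and, on the right, the log2 fold change of DTA-1 minus isotype, with 1 point per gene coloured by role. GC-poorer genes lie mostly above 0 on the left. The correlation on the right is 0.48 (Spearman, 47 genes), beside 0.23 over the 10112 tested genes with a known transcript.

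With isotype replicate 1 or 3 left out, 28 and 26 of 47 members lay above 0, beside 51.7% and 50.9% of all tested genes. With DTA-1 replicate 1, 2 or 3 left out, the counts were 31, 35 and 29, beside 50.7%, 53.9% and 52.6%. Without isotype replicate 2 the count was the largest, 43 of 47, with a median log2 fold change of 0.15. Over all tested genes the values were 54% and 0.019, and still no member passed. The count at an unadjusted p under 0.05 was then 8 higher (17.0%) and 0 lower, beside 6.61% and 8.88% of all tested genes. The DTA-1 values lay above both remaining isotype values for 23 members (48.9%) and below both for 0, beside 19.1% and 16% of all tested genes. For 11 members the sign of the log2 fold change turned from below to above 0, namely Nop58, Fbl, Dkc1, Nhp2, Gar1, Ncl, Npm1, Nolc1, Utp18, Wdr12 and Taf1d. Leaving it out added 9 genes without overlap, Nhp2, Ddx21, Wdr43, Wdr75, Nop14, Ltv1, Tsr1, Pes1 and Ebna1bp2. Among the 24 GC-richer members the median log2 fold change was 0.20 with all libraries and 0.18 without isotype replicate 2, and among the 23 GC-poorer ones it was 0.041 and 0.14. Over all tested genes split at the same GC content, the medians were 0.061 and 0.0013 for the GC-richer genes and -0.028 and 0.038 for the GC-poorer genes. With all libraries, 11 GC-richer members (45.8%) and 3 GC-poorer ones (13.0%) were higher without overlap. The shares of all tested genes were 13.5% and 9.02%. Without isotype replicate 2 the counts were 12 (50%) and 11 (47.8%), beside 16.2% and 22.0%. With each library's smooth trend with GC content and transcript length removed, an alternative chosen after the data were seen, the members' median was 0.13, and 0 members passed, beside 0.00989% of tested genes higher and 0.00989% lower. At an unadjusted p under 0.05, 8 members (17.0%) were then higher and 0 lower, beside 8.47% and 8.83% of tested genes.

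The window around the transcription start is known from RefSeq (GRCm38.p6) for 41 of the 47 members. Bop1, Npm1, Fbl, Nol6, Rrp12 and Rrs1 were not matched. In windows from 250 bases before to 50 bases after the start, the MYC-binding letters CACGTG (the same on both strands) were found for 10 of 41 members (24.4%). They were found for 16.7% of 108 other ribosome biogenesis genes (from the list described below), 12.4% of 8076 tested genes and 8.09% of all 27025 genes with a window. Per window, the letters were in 20.0% of the members' 50 windows and 15.7% of the 121 windows of the other ribosome biogenesis genes. They were in 10.4% of the 10266 windows of tested genes and 7.15% of all 32851 windows. The 10 members were Grwd1, Ltv1, Mybbp1a, Nop2, Pes1, Rrn3, Tsr1, Utp18, Utp20 and Wdr43. No overlap between groups was seen for 4 of these 10 and for 10 of the 31 members without the letters, beside 11.2% of all tested genes higher. These counts became 8 and 15 without isotype replicate 2, beside 19.1% of all tested genes. With all libraries, the median log2 fold changes were 0.0996 and 0.053. The letters CCGGAAG (with their reverse complement), which ETS factors bind, were found for 15 of 41 members (36.6%). They were found for 42.6% of the 108 other ribosome biogenesis genes, 22.8% of tested genes and 9.93% of all genes. Searched likewise on both strands, GGGCGG (the GC box) was found for 30 members (73.2%, beside 63.0% of the 108 genes and 71.0% of tested genes). ATTGG (the CCAAT box) was found for 13 (31.7%, beside 36.1% and 43.4%) and the palindromic NRF1 motif for 0 of 41, beside 3.70% and 2.65%. The 250 bases before the start are shown for Nop2 and Rrn3, as examples of the 4 members with CACGTG and no overlap between groups, with those letters in capitals. They are also shown for Nob1, the member with the largest log2 fold change, whose window does not hold the letters.
Nop2, chr6:125131633-125131882 on the plus strand: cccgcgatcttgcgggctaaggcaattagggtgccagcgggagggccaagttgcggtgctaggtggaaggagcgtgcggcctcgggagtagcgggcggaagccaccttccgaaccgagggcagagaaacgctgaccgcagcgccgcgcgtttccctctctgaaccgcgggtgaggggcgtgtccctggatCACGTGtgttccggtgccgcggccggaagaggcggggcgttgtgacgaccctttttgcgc
Rrn3, chr16:13780449-13780698 on the plus strand: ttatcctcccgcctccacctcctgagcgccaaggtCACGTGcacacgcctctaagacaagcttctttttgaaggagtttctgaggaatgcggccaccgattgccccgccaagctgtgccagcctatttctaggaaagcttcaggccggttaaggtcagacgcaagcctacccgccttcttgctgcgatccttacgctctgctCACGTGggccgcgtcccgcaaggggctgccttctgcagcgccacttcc
Nob1, chr8:107425039-107425288 on the minus strand: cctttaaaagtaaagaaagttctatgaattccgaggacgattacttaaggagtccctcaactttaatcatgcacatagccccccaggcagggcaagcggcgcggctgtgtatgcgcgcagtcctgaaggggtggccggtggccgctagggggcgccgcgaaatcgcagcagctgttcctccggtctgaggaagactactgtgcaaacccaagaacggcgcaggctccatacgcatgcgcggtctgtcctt
The match of Nop2 begins 60 bases before the start, and those of Rrn3 begin 215 and 48 bases before it. A match is a description of the letters and does not show binding.

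Myc itself measured 126, 105 and 129.9 FPKM in isotype replicates 1, 2 and 3 and 175, 173 and 161 FPKM in DTA-1 replicates 1, 2 and 3. Every DTA-1 library lay above every isotype library, with a log2 fold change of 0.50 ± 0.12, and the gene did not pass (limma adjusted p = 0.140). The proliferation marker Mki67 measured 115, 54.8 and 43.3 FPKM with the isotype and 39.6, 27.3 and 30.3 FPKM with DTA-1. Pcna, which encodes the sliding clamp of DNA polymerases, measured 301 ± 36.5 and 180.2 ± 6.07 FPKM. Both had every DTA-1 value below every isotype value, with log2 fold changes of -0.998 ± 0.33 and -0.73 ± 0.12, and neither passed (limma adjusted p = 0.225 and 0.0817).

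No gene of the snoRNP core proteins was without overlap between groups, beside 11.2% of all tested genes higher and 10.5% lower. Isotype replicate 2 was the highest library of 6 of the 7 genes. Among the box C/D proteins, Fbl encodes fibrillarin, the enzyme that methylates ribose in ribosomal RNA, and Nop56 and Nop58 encode the scaffold pair that holds it on the guide RNA. Fbl, the most abundant of them, measured 228, 353 and 252 FPKM in isotype replicates 1, 2 and 3 and 249.8, 248 and 265 FPKM in DTA-1 replicates 1, 2 and 3. Nop58 measured 157, 262 and 158 FPKM and 157, 153 and 179.7 FPKM in the same order. In both genes isotype replicate 2 was the highest library by far. The other isotype libraries lay within the DTA-1 range for Nop58, and for Fbl 1 lay within it and 1 below. The log2 fold changes were -0.10 ± 0.17 and -0.20 ± 0.20 (limma adjusted p = 0.849 and 0.738), and 0.087 and 0.045 without isotype replicate 2. Nop56 varied less, with 171 ± 11.9 and 172 ± 5.29 FPKM and a log2 fold change of 0.0081 ± 0.11.

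Of the box H/ACA proteins, Dkc1 encodes dyskerin, the enzyme that converts uridine to pseudouridine, and Nop10, Nhp2 and Gar1 encode its small partners. Nhp2, the most abundant, measured 195, 284 and 210.2 FPKM with the isotype and 221, 222 and 222 FPKM with DTA-1. Gar1 had the largest SE of the 47 members, at 74.95, 192 and 96.5 FPKM with the isotype and 80.9, 101 and 109 FPKM with DTA-1. Isotype replicate 2 was again the highest library of both genes, although Gar1 is GC-rich at 57.0%, as is Fbl at 56.7%, where most GC-rich members were low in that library. Their log2 fold changes were -0.032 ± 0.15 and -0.21 ± 0.31 (limma adjusted p = 0.952 and 0.828), and 0.13 and 0.18 without isotype replicate 2. Dkc1 measured 86.9 ± 15.6 and 85.9 ± 6.88 FPKM, and Nop10 116 ± 8.41 and 130.4 ± 8.63 FPKM. The median log2 fold change was -0.099 for the 3 box C/D genes and -0.018 for the 4 box H/ACA genes, and both medians were above 0 without isotype replicate 2 (0.060 and 0.13). GENCODE places 31 snoRNA genes inside 9 members on the same strand, and the 11 of these that the tables list were at 0 in every library. Whether these libraries captured such small RNAs was not tested, so a value of 0 does not show absence.

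The group of nucleolar organisers and helicases held the most abundant members. With all libraries 3 of 7 genes lay above 0 with a median log2 fold change of -0.010, and without isotype replicate 2 they were 6 of 7 with a median of 0.029. Npm1 measured 1807, 2492 and 1550.4 FPKM in isotype replicates 1, 2 and 3 and 1681, 1569 and 1854 FPKM in DTA-1 replicates 1, 2 and 3. The groups overlapped, with isotype replicate 2 above the rest, and the log2 fold change was -0.17 ± 0.18 (limma adjusted p = 0.743) and 0.020 without that library. Npm1 has many pseudogene copies, between which reads can be split. Ncl, which encodes nucleolin, a binder of ribosomal RNA precursors, also had its highest value in isotype replicate 2, at 258, 458 and 249.2 FPKM with the isotype and 246, 248 and 284 FPKM with DTA-1.

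Mybbp1a was the single gene of this group without overlap (14.3% of the group, beside 11.2% of all tested genes higher). It encodes a nucleolar protein that binds MYB and acts in ribosomal RNA processing, and lies on chromosome 11, 72441355 to 72451768 of GRCm38. It measured 166, 154 and 157 FPKM with the isotype and 198, 196 and 184 FPKM with DTA-1. All DTA-1 libraries lay above all isotype libraries, isotype replicate 2 did not stand apart, and the mean was 1.21 times that of the isotype (log2 fold change 0.28 ± 0.10, limma unadjusted p = 0.0268, adjusted p = 0.280). The RNA helicase gene Ddx21, which couples transcription by RNA polymerase I to processing, measured 142 ± 23.4 and 141 ± 5.07 FPKM. The nucleostemin gene Gnl3 measured 79.0 ± 8.07 and 81.9 ± 6.36 FPKM, and Nolc1, which encodes a chaperone of snoRNPs, 85.2 ± 4.45 and 84.6 ± 4.55 FPKM. Lyar, which encodes a nucleolar protein linked to cell growth, measured 71.3 ± 16.3 and 60.1 ± 5.91 FPKM with overlap between groups.

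Factors of the small subunit had higher mean log2 levels with DTA-1 in nearly every case, by small amounts that did not pass the test. Of the 15 genes 14 had a log2 fold change above 0, and the median was 0.14. Without overlap between groups were 5 (33.3%, namely Rrp9, Utp15, Heatr1, Bysl and Nob1), beside 11.2% of all tested genes higher. Without isotype replicate 2 the median was 0.18, with 15 genes above 0. Then 10 (66.7%) were without overlap, beside 19.1% of all tested genes, a share that also rises when this library is left out. Nob1, the endonuclease that makes the final cut of 18S ribosomal RNA, lies on chromosome 8, 107412486 to 107425051. It measured 48.7, 55.5 and 57.1 FPKM in isotype replicates 1, 2 and 3 and 69.8, 68.8 and 65.5 FPKM in DTA-1 replicates 1, 2 and 3. The lowest DTA-1 library stood above the highest isotype library, with a log2 fold change of 0.34 ± 0.11 (limma unadjusted p = 0.0160, adjusted p = 0.228) and 0.36 without isotype replicate 2.

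Rrp9, which encodes the protein specific to the U3 snoRNP, the particle that starts small subunit processing, lies on chromosome 9, 106475963 to 106485424. It measured 73.7, 67.1 and 76.5 FPKM with the isotype and 90.9, 90.3 and 90.5 FPKM with DTA-1, so the DTA-1 libraries were nearly equal and all above the isotype range. The log2 fold change was 0.32 ± 0.10 (limma unadjusted p = 0.0152, adjusted p = 0.224, the smallest of the members). Heatr1, whose product belongs to the subcomplex of the processome that also serves transcription of ribosomal DNA, lies on chromosome 13, 12395027 to 12440289. It measured 40.1, 34.0 and 38.7 FPKM with the isotype and 46.1, 45.8 and 44.5 FPKM with DTA-1, again without overlap, with a log2 fold change of 0.27 ± 0.11 (limma unadjusted p = 0.0406, adjusted p = 0.332).

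Other genes of the same subcomplex were less apart. Utp15 measured 22.4, 19.3 and 20.5 FPKM with the isotype and 22.7, 23.1 and 22.7 FPKM with DTA-1, where the gap between the groups was narrower than the isotype spread. Wdr43 (70.3 ± 9.89 and 74.4 ± 3.92 FPKM) and Wdr75 (44.6 ± 5.20 and 47.1 ± 1.32 FPKM) overlapped between groups, with isotype replicate 2 the highest library of each. Their log2 fold changes of 0.088 ± 0.13 and 0.081 ± 0.12 became 0.20 and 0.17 without that library, and their groups then did not overlap. Among further processome genes, Utp18 measured 45.8 ± 9.85 and 44.8 ± 4.58 FPKM and was the single gene of the group below 0, at -0.013 ± 0.17. Utp20 measured 35.3 ± 1.75 and 37.1 ± 2.58 FPKM, Nop14 55.8 ± 8.74 and 57.4 ± 4.80 FPKM, and its partner Noc4l 46.3 ± 10.5 and 54.3 ± 6.62 FPKM. Nol6 measured 36.7 ± 6.07 and 45.1 ± 4.12 FPKM, with a log2 fold change of 0.30 ± 0.15, and 0.18 without isotype replicate 2. For Noc4l, one of the GC-richer genes (55.3%), the log2 fold change of 0.25 ± 0.19 became 0.045 without isotype replicate 2, its lowest library at 34.2 FPKM.

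Genes of late small subunit maturation and export covered a range of outcomes. Bysl, which encodes bystin, a factor of the pre-40S particle, measured 29.0, 27.3 and 30.6 FPKM with the isotype and 34.4, 34.2 and 33.01 FPKM with DTA-1, without overlap. Ltv1, an assembly factor gene, measured 49.6 ± 10.7 and 49.1 ± 3.15 FPKM, and Tsr1, which encodes a GTPase-like factor of late particles, 42.9 ± 9.51 and 45.9 ± 4.46 FPKM. The export factor gene Rrp12 measured 50.4 ± 5.76 and 56.8 ± 5.76 FPKM. The log2 fold changes of Ltv1, Tsr1 and Rrp12 were 0.0030 ± 0.16, 0.11 ± 0.17 and 0.17 ± 0.13, and 0.17, 0.28 and 0.23 without isotype replicate 2.

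**Figure D3:**
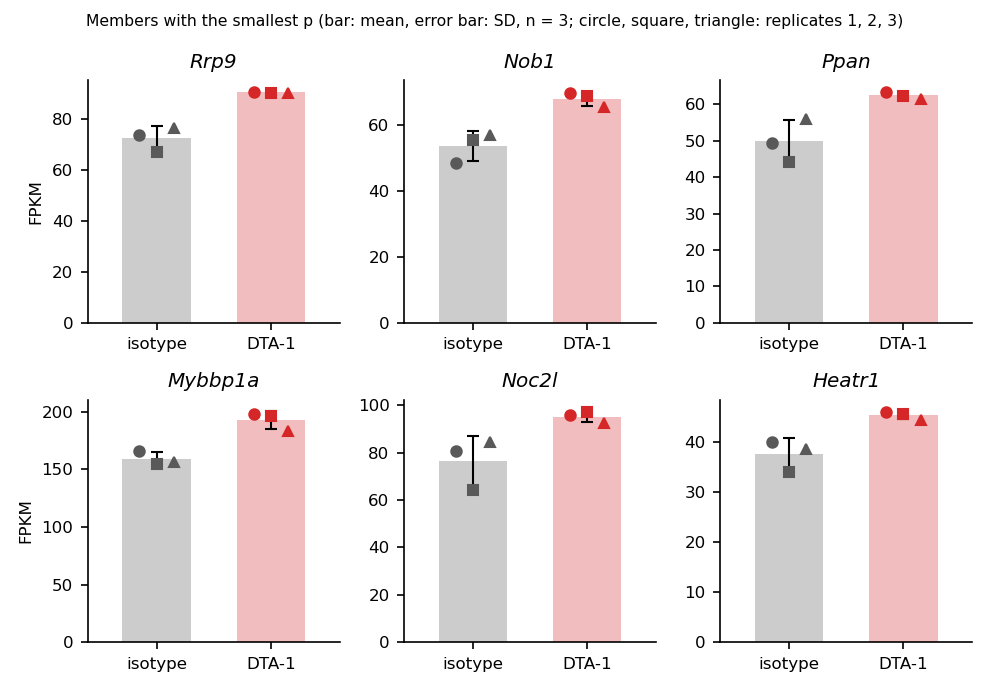
FPKM of the 6 genes with an unadjusted p under 0.05, by group. Bars are means, error bars the SD of 3 libraries, and the circle, square and triangle are replicates 1, 2 and 3. In each gene all DTA-1 points lie above all isotype points, as for Rrp9 with a DTA-1 mean of 90.6 FPKM and an isotype mean of 72.4 FPKM.

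Of the 12 genes for factors of the large subunit 9 lay above 0, with a median log2 fold change of 0.15. Without overlap were 4 (33.3%, namely Nop2, Noc2l, Ppan and Grwd1), beside 11.2% of all tested genes higher. Without isotype replicate 2 the median was 0.21, with 10 genes above 0. Then 6 (50%) were without overlap, beside 19.1% of all tested genes, a share that rises as well. Noc2l, the most abundant, encodes a partner in the export of large subunit precursors and lies on chromosome 4, 156236010 to 156247616. It measured 80.6, 64.2 and 84.4 FPKM in isotype replicates 1, 2 and 3 and 95.8, 97.1 and 92.6 FPKM in DTA-1 replicates 1, 2 and 3. Isotype replicate 2 was its lowest library, and the log2 fold change of 0.32 ± 0.13 (limma unadjusted p = 0.0365, adjusted p = 0.318) was 0.20 without it. Ppan, a large subunit factor gene on chromosome 9, 20888175 to 20892178, measured 49.5, 44.1 and 55.9 FPKM with the isotype and 63.5, 62.3 and 61.6 FPKM with DTA-1. It had the largest log2 fold change of the group, 0.33 ± 0.12 (limma unadjusted p = 0.0260, adjusted p = 0.278), and 0.24 without isotype replicate 2.

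Nop2 encodes a methyltransferase of 28S ribosomal RNA and measured 75.03, 77.4 and 70.8 FPKM with the isotype and 88.2, 84.1 and 82.1 FPKM with DTA-1. The groups did not overlap, and its log2 fold change was 0.19 ± 0.10 with all libraries and 0.22 without isotype replicate 2. Grwd1, whose product is a chaperone of the ribosomal protein RPL3, measured 41.6, 40.1 and 46.3 FPKM with the isotype and 51.1, 55.6 and 47.5 FPKM with DTA-1, also without overlap.

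The products of Pes1, Bop1 and Wdr12 join as the PeBoW complex, which processes the large subunit RNA, and all 3 genes overlapped between groups with all libraries. Pes1 measured 57.4, 70.7 and 56.2 FPKM with the isotype and 63.3, 63.5 and 61.99 FPKM with DTA-1. Bop1 measured 73.9, 44.9 and 70.1 and 78.0, 78.1 and 66.0 FPKM, and Wdr12 35.6, 38.1 and 31.5 and 29.9, 32.99 and 38.2 FPKM. Isotype replicate 2 was the highest isotype library for Pes1 and Wdr12 and the lowest for Bop1, which is GC-rich at 58.2%, while Wdr12 is the poorest member at 40.4%. The log2 fold changes of Pes1, Bop1 and Wdr12 were 0.041 ± 0.12, 0.26 ± 0.19 and -0.059 ± 0.13, and 0.15, 0.036 and 0.0011 without isotype replicate 2. With all libraries, of the remaining genes, Noc3l (31.4 ± 9.62 and 30.9 ± 3.505 FPKM) and Nop16 (51.0 ± 7.12 and 56.4 ± 6.10 FPKM) overlapped between groups. So did Ebna1bp2 (47.8 ± 4.23 and 53.1 ± 2.93 FPKM), Rrs1 (56.9 ± 2.92 and 54.7 ± 2.09 FPKM) and Rrp1b (20.1 ± 3.02 and 19.6 ± 2.53 FPKM).

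Of the 6 genes of RNA polymerase I 4 (66.7%) lay above 0 and were without overlap (Polr1a, Polr1b, Polr1e and Rrn3), beside 11.2% of all tested genes without overlap and higher. Of 16 other genes of RNA polymerase I and its factors (from the list described below), 2 (12.5%) were without overlap and higher. The median log2 fold change was 0.19 over the group of 6. None reached an unadjusted p under 0.05 in limma, beside 6.22% of all tested genes higher. Without isotype replicate 2 the median was 0.12, with 5 genes above 0. Then 1 (16.7%) was higher at an unadjusted p under 0.05, beside 6.61% of all tested genes. The catalytic subunit gene Polr1a measured 35.2, 30.8 and 34.8 FPKM in isotype replicates 1, 2 and 3 and 38.7, 39.8 and 37.6 FPKM in DTA-1 replicates 1, 2 and 3. Polr1b, the gene of the second largest subunit, measured 26.2, 21.2 and 25.7 FPKM and 32.8, 29.9 and 27.0 FPKM in the same order. Polr1e measured 10.7, 8.52 and 10.8 FPKM and 11.5, 11.8 and 11.4 FPKM. In each of these genes all DTA-1 libraries lay above all isotype libraries, with isotype replicate 2 the lowest. Rrn3 encodes TIF-IA, the factor that makes the polymerase ready to initiate in response to growth signals, and measured 42.2, 45.4 and 40.8 FPKM with the isotype and 46.7, 49.8 and 50.5 FPKM with DTA-1, without overlap and with isotype replicate 2 the highest isotype library.

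The log2 fold changes were 0.29 ± 0.13 for Polr1b (limma adjusted p = 0.386), 0.20 ± 0.11 for Polr1a, 0.20 ± 0.13 for Polr1e and 0.19 ± 0.11 for Rrn3. Without isotype replicate 2 they were 0.19, 0.14, 0.10 and 0.23. Ubtf, which encodes UBF, the protein that keeps ribosomal DNA in an open state, lay lower on average at 54.2, 69.0 and 48.3 FPKM with the isotype and 52.2, 44.4 and 46.8 FPKM with DTA-1. Taf1d, a subunit gene of the promoter selectivity factor and the most abundant of the group, measured 53.6, 82.9 and 55.5 and 54.0, 53.2 and 62.6 FPKM. Both overlapped between groups with isotype replicate 2 on top, and their log2 fold changes of -0.24 ± 0.15 and -0.15 ± 0.18 (limma adjusted p = 0.540 and 0.783) were -0.10 and 0.049 without that library.

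**Figure D4:**
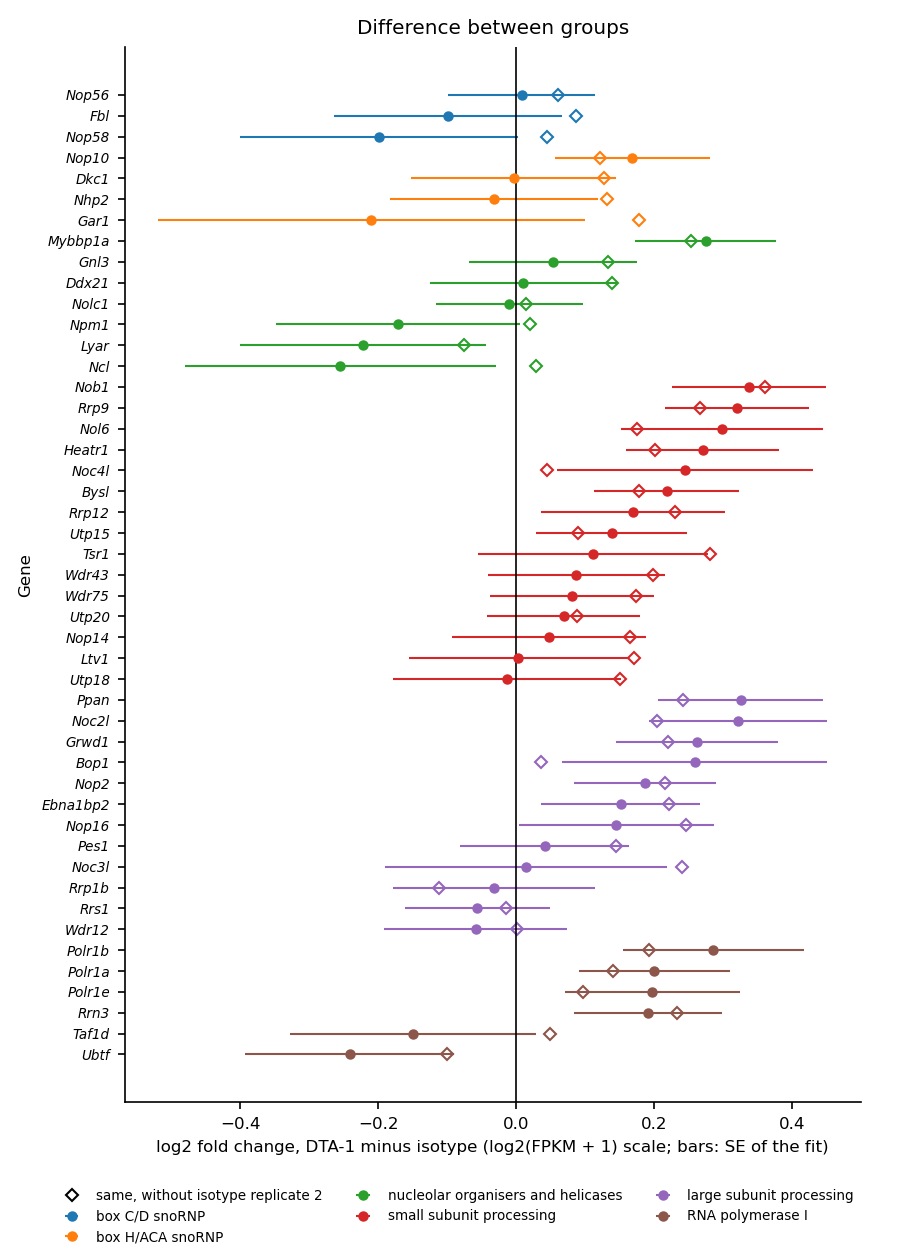
Log2 fold change of DTA-1 minus isotype on the log2(FPKM + 1) scale for the 47 genes, grouped by role. Filled points with bars are the fit of all 6 libraries with its SE, and open diamonds the fit without isotype replicate 2, where 43 genes lie above 0 against 32 with all libraries. With any other single library left out instead (not drawn), 26 to 35 genes lie above 0.

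In the wider pathway, 131 other genes of ribosome biogenesis were listed and all were tested, and 0 passed in limma. At an unadjusted p under 0.05, 5 (3.82%) were higher and 0 lower, which is below the 6.22% and 7.73% of all tested genes. Every DTA-1 value lay above every isotype value for 17 genes (13.0%) and below for 2 (1.53%), beside 11.2% and 10.5% of all tested genes, and the median log2 fold change was 0.040. Rcl1, a small subunit factor gene, had the smallest p of the list and measured 56.6, 50.8 and 63.6 FPKM with the isotype and 82.8, 79.3 and 73.1 FPKM with DTA-1 (log2 fold change 0.46 ± 0.12, limma unadjusted p = 0.00558, adjusted p = 0.162). Next came Nle1 (27.1 ± 3.43 and 34.4 ± 2.41 FPKM), Mdn1, the gene of a giant ATPase that strips factors from large subunit precursors (23.6 ± 1.42 and 28.7 ± 0.574 FPKM), and Wdr46 (43.0 ± 4.72 and 53.8 ± 3.76 FPKM). Their log2 fold changes were 0.34 ± 0.13, 0.27 ± 0.11 and 0.32 ± 0.12 (limma adjusted p = 0.295, 0.304 and 0.304).

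The most abundant of the other genes were Polr1d, which encodes a subunit shared by RNA polymerases I and III (200.1 ± 11.5 and 199 ± 12.1 FPKM), and Nhp2l1, which encodes a protein that binds the kink-turn of box C/D RNAs (159 ± 33.6 and 187 ± 5.647 FPKM). Their log2 fold changes were -0.0094 ± 0.11 and 0.25 ± 0.16 (limma adjusted p = 0.981 and 0.556), and 0.034 and 0.066 without isotype replicate 2. By role, the median log2 fold change of the other genes was 0.074 for 44 small subunit factors and 0.068 for 45 large subunit factors. It was 0.015 for 11 snoRNP assembly factors, 0.00020 for 16 genes of RNA polymerase I and its factors, 8 of them above 0, and -0.059 for 15 genes of the RNA exosome and exonucleases. The genes without overlap that were lower, Exosc3 (72.3 ± 7.44 and 60.6 ± 2.22 FPKM) and Exosc8 (51.2 ± 3.27 and 44.0 ± 2.26 FPKM), both encode subunits of the RNA exosome, which trims ribosomal RNA ends, and were named after their values were seen. With isotype replicate 2 left out, DTA-1 lay wholly above the isotype for 54 of the 131 genes (41.2%) and wholly below for 5 (3.82%), beside 19.1% and 16% of all tested genes, and no gene passed.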

How the data were processed

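RNA from 3 isotype and 3 DTA-1 samples was sequenced from directional libraries, per the labels' protocols. Per the submitters' processing notes, TopHat was used with the mouse build mm10. TopHat's version, the quantifier, the gene annotation and whether strand was used are each not given in the sources used here. The tables the authors deposited hold 1 value per gene symbol, taken as FPKM because the values are not whole, sum to 574195 to 606724 per library and fall at low levels on steps that shrink as transcripts lengthen. No 2 libraries held identical values. For genes with 1 transcript, 49.9% to 55.2% of the low values lay within 0.1 of a whole number of such steps, so the depth of 18800000 to 20500000 fragments is an estimate.

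The test, limma 3.58.1 run in R 4.3.3 on log2(FPKM + 1), covered every gene that reached 1 FPKM in 3 or more libraries (2-sided, group as the single term, empirical Bayes with trend and robust, Benjamini-Hochberg adjustment over all 10501 genes). Because strand use is not given, the 15 members that overlap a listed coding gene on the other strand may carry some of its reads. Positions, transcript GC content and lengths came from GENCODE M21 (GRCm38, the assembly of mm10), with 1 transcript per gene (96.3% of tested genes matched), and promoter windows from RefSeq (GRCm38.p6). Trends with GC content and length were fitted with mgcv 1.9.3. Full statistics are given for members at an unadjusted p under 0.05 and, in each role group, for the most abundant member and the one with the largest absolute log2 fold change; of the 131 other genes, for the 4 of smallest p and the 2 of highest mean, plus Tnfrsf18, Myc, Mki67 and Pcna. Other members are given with their levels. The members and lists were chosen with earlier results of these data known. The fit was tested on simulated data. Alternatives covered the pseudocount, the filter, scaling, moderation, library weights, the threshold, a block by replicate number and leaving out each library.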

Additional observations from a re-analysis of the deposited data

How the results depend on the processing

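No member and no other ribosome biogenesis gene passed an adjusted p under 0.05 under any of the 18 other fits, nor an adjusted p under 0.1 in the reported fit. The members' median log2 fold change stayed above 0, between 0.034 and 0.15, as did those of the small subunit, large subunit and RNA polymerase I groups. The snoRNP and nucleolar groups' medians changed sign between settings. Among the scalings, 28 to 34 members lay above 0, and with each library left out in turn 26 to 43 did. The count of members higher at an unadjusted p under 0.05 was 10 with library quality weights and 3 with a replicate block, against 6. It was 11 with the GC content and length trend removed and isotype replicate 2 left out, where the medians of the large subunit and RNA polymerase I groups were 0.22 and 0.11. The shares of all tested genes in these alternative fits are not given here, so their counts cannot be read against the whole set of tested genes. With each library left out in turn, the count of members higher at an unadjusted p under 0.05 ran from 0 to 8 and the count lower from 0 to 1. Beside them stood 3.65% to 7.11% and 5.35% to 8.88% of all tested genes. The count without overlap ran from 14 to 23 higher and from 0 to 2 lower, beside 13.2% to 19.1% and 12.0% to 17.0% of all tested genes, and the medians from 0.099 to 0.21 for the large subunit group and from 0.12 to 0.21 for RNA polymerase I. Leaving out isotype replicate 2 gave 23 without overlap. Shared replicate numbers did not pair the libraries: deviations from the group means correlated at 0.39, -0.10 and -0.13 for numbers 1, 2 and 3 over the tested genes. Isotype replicate 1 correlated best with its own number, but isotype replicate 2 with DTA-1 replicate 3 (0.49) and isotype replicate 3 with DTA-1 replicate 2 (0.38). The block was run by number alone, which these correlations do not bear out for numbers 2 and 3. No other pairing was fitted, so results with the block are given as values only. In limma, Pcna passed with the block (adjusted p = 0.0498) and with quality weights (0.0130), Mki67 with the block (0.0447) and Myc with quality weights (0.0271). The trend removal gave no value for Nhp2l1, which had no transcript match.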
